A study of Mus musculus with 9 samples.

Results

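Annexins and the S100 calcium-binding proteins were followed as a group of 10 genes, 8 annexins (*Anxa1*, *Anxa2*, *Anxa3*, *Anxa4*, *Anxa5*, *Anxa6*, *Anxa7* and *Anxa11*) and 2 S100 genes (*S100a4* and *S100a6*), chosen by name out of the 53801 Ensembl genes listed for each library. Their Ensembl identifiers were turned into mouse symbols with the GENCODE M21 annotation of GRCm38, and each symbol matched a single identifier. The cells were monocytes/macrophages, sorted as CD11c-Ly6G-CD11b+CD45high from 9-week-old male C57BL/6J mice. The 3 stroke blood libraries and the 3 stroke brain libraries came from mice at day 5 after dMCAO, a permanent blockage of the left distal middle cerebral artery together with the left common carotid artery. The 3 sham blood libraries came from mice that had the sham operation, for which no day is given in the sources used here. Each blood library held the cells of 1 mouse, and each brain library held cells pooled from 5 brains. Whole sorted populations were sequenced, so a change in the mix of cells and a change of RNA per cell cannot be told apart.

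Total counts ranged from 18475118 to 22623578 per library. Levels below are normalised CPM, counts per 1000000 counts of the library after TMM scaling over all 9 libraries. All 5 sort genes (*Itgam*, *Ptprc*, *Csf1r*, *Lyz2* and *Cd68*) had counts in every library. *Lyz2*, which made up most of their sum, ran from 81855 to 119356 in blood and from 35064 to 40267 in the brain and was lower in both brain comparisons. *Cd68* was higher in both (edgeR log2 fold change 0.56, adjusted p = 0.0315, and 0.61, adjusted p = 0.0253), *Itgam* was lower against stroke blood (-0.59, adjusted p = 0.0119), and *Ptprc* and *Csf1r* did not pass. Some libraries stood apart from their group. Sham blood replicate 3 had the highest summed level of 7 neutrophil markers (1804 against at most 835 in the other blood libraries), mostly *Mmp8* (1311) and *Retnlg* (469), while *Camp*, *Ngp* and *Ltf* were higher in sham blood replicate 1 (9.99, 36.4 and 22.1) than in replicate 3 (1.84, 8.8 and 4.35). Sham blood replicate 1 had the lowest erythroid level (1261 against 14211 to 34224 in the other blood libraries). Among the 6 non-classical monocyte markers, *Nr4a1* was at 3081 in brain replicate 1 against 692 and 863 in the other brain libraries. *Ace* (151), *Spn* (68.4) and *Itgal* (570) were also highest there of the 3 brain libraries, while *Treml4* and *Cd300e* were lowest.

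Annexins are cytosolic proteins that dock onto acidic membrane phospholipids when the calcium level rises, and they take part in membrane repair, vesicle traffic and the ending of inflammation. S100 proteins are small EF-hand proteins, most of which change shape on binding calcium, and they grip partner proteins, among them several annexins. In monocytes and macrophages both families are abundant. Annexin A1 is known as a mediator of resolution that signals through formyl peptide receptors, annexin A5 as the protein that binds exposed phosphatidylserine on dying cells, and S100A8 with S100A9 as the calprotectin of neutrophils and inflammatory monocytes.

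The brain libraries held less *S100a4*, *S100a6* and *Anxa1* RNA than either kind of blood library, while the other 7 genes did not pass the test. With edgeR's quasi-likelihood test, all 10 genes were measured in all 3 comparisons. In brain versus stroke blood, 3 of the 10 passed at an adjusted p below 0.05, all lower in the brain, where 13.1% of the 13189 genes tested were lower. Of these, *S100a4* and *S100a6* were also DEGs, a term kept here for genes that passed and moved by more than 2-fold, against 7.86% of all genes that were lower DEGs. In brain versus sham blood the counts came to 3 lower genes (background 7.68% of 13020 genes) and 2 lower DEGs (background 3.67%), with *S100a4*, *S100a6* and *Anxa1* again the genes that passed. Of all genes that passed against stroke blood, 57.2% were higher in the brain, a share that was 69.2% with library size scaling and 45.5% with upper-quartile scaling, and against sham blood it was 61.1%, or 72.5% with library size scaling. The 3 brain libraries lay below all 3 stroke blood libraries for 4 of the 10 genes (background 23%) and below all 3 sham blood libraries for 5 of 10 (background 19.8%). The median log2 fold change of the 10 genes was -0.31 in brain versus stroke blood and -0.29 in brain versus sham blood, where all genes tested had medians of 0.062 and 0.010. Both comparisons use the same 3 brain libraries, so their results are not independent of each other.

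**Figure D1:**
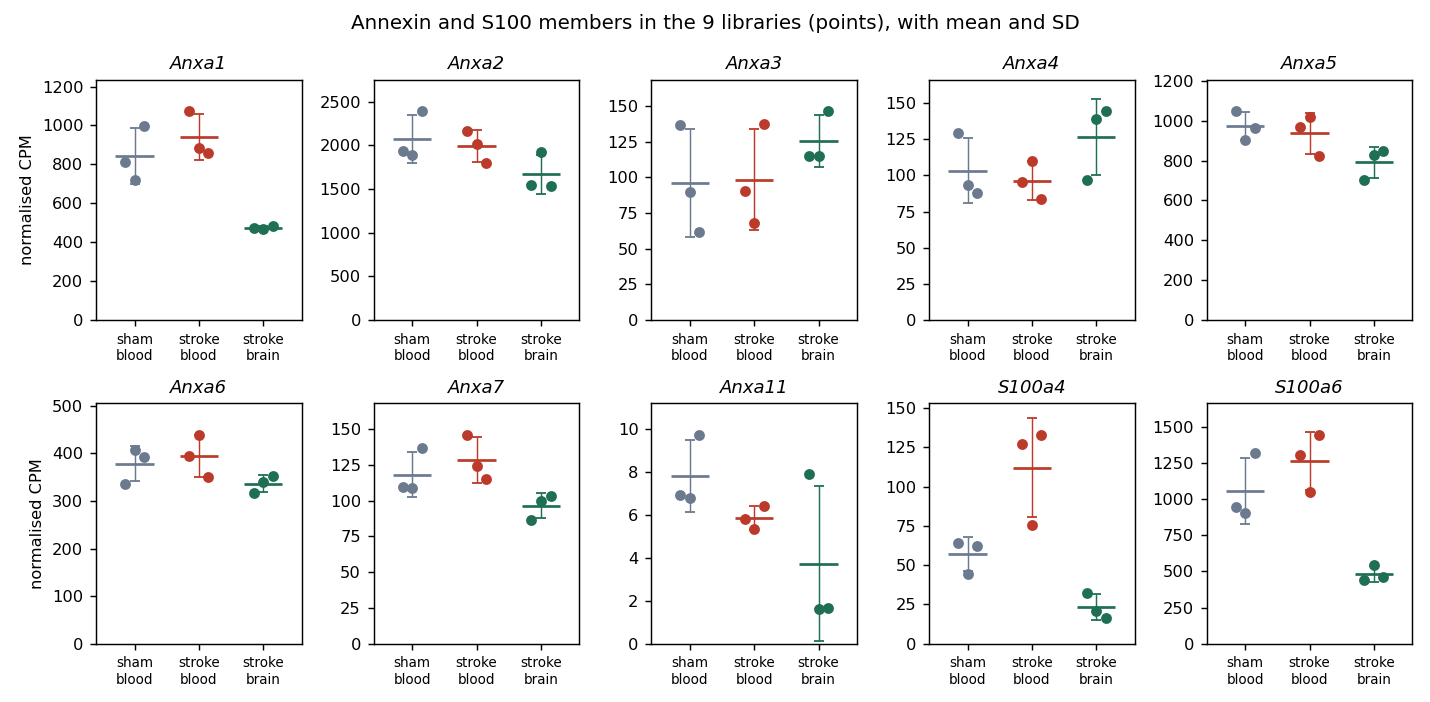
Normalised CPM (y axis, from 0) of the 10 genes in each of the 9 libraries, with the group mean (line) and SD (bar) for sham blood, stroke blood and stroke brain, n = 3 each. The brain points of *S100a4*, *S100a6* and *Anxa1* lie below every blood point, while those of *Anxa2*, *Anxa3*, *Anxa4* and *Anxa6* overlap the blood points.

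*S100a4*, a small protein that binds non-muscle myosin and is linked to cell movement, showed the largest fall. Its level in normalised CPM was 64.4, 44.6 and 62.1 in sham blood, 127, 75.6 and 133 in stroke blood and 32.3, 21.1 and 16.6 in the brain. Every brain library was below every blood library, and the stroke blood libraries were all above the sham blood libraries. The log2 fold change was -2.23 ± 0.30 (SE, adjusted p = 0.000775 by edgeR) in brain versus stroke blood, a 4.69-fold lower level, and -1.27 ± 0.28 (SE, adjusted p = 0.0182 by edgeR) in brain versus sham blood, 2.42-fold lower. The second call was lost without sham blood replicate 1, sham blood replicate 3, brain replicate 2 or brain replicate 3 (adjusted p from 0.0515 to 0.0666), whereas the first held in every fit. The gene lies on chromosome 3 from 90603771 to 90606045 on the plus strand, and 302 of its 584 exon bases are shared with *Gm42674* on the same strand, which had 0 counts in each library, so reads there may have been left uncounted.

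*S100a6*, or calcyclin, a partner of annexins that is abundant in dividing and migrating cells, starts 9.11 kb after *S100a4* on the same strand. Its level was 947, 901 and 1322 in sham blood, 1304, 1050.0 and 1445 in stroke blood and 439, 542 and 462 in the brain, and no brain library reached any blood library. The fall came to a log2 fold change of -1.37 ± 0.17 (SE, adjusted p = 0.000459 by edgeR) against stroke blood, 2.59-fold lower, and -1.12 ± 0.18 (SE, adjusted p = 0.0067 by edgeR) against sham blood, 2.18-fold lower. Both calls at an adjusted p below 0.05 held in every alternative fit. The second value was under the DEG threshold without sham blood replicate 3 (-0.94) and, just, with library size scaling. In normalised CPM of the same library, *S100a6* stood above *S100a4* by a ratio of 10.3 to 13.9 in stroke blood, 14.7 to 21.3 in sham blood and 13.6 to 27.9 in the brain.

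Because *S100a4* and *S100a6* are neighbours and fell together, the sequence before their starts is shown beside that of *Anxa2*, an abundant annexin that did not pass the test. The bases are RefSeq promoter windows of GRCm38.p6, read on the plus strand and kept up to the first annotated exon. They cover chr3:90603520-90603769 for *S100a4*, chr3:90612644-90612881 for *S100a6* and chr9:69453433-69453619 for *Anxa2*. Capitals mark matches, on either strand, to any of 4 motifs. These were the TATA box, spelt TATAAA, the site of AP-1 factors, spelt TGANTCA, the CCAAT box and a common core of ETS factor sites, spelt AGGAAG.
S100a4: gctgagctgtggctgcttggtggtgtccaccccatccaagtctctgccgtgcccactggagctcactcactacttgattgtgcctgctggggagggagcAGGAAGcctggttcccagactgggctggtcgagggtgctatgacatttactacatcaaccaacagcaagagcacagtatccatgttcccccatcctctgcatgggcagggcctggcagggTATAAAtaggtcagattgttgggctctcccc
S100a6: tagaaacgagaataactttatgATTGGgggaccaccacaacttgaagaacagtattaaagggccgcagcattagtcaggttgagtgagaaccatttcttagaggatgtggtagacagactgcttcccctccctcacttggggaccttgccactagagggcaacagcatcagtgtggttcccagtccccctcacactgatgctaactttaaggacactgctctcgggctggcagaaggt
Anxa2: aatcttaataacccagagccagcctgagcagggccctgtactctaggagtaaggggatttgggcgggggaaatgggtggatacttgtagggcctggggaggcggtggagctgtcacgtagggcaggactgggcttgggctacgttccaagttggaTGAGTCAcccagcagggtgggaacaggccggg
The *S100a4* stretch of 250 bases held a TATA box, starting 31 bases before the RefSeq start, and an ETS core. Over the same length, 12.4% of the 32851 windows held the TATA box motif and 29.5% the ETS core. The *S100a6* stretch of 238 bases held a CCAAT box on the minus strand, as did 32.9% of windows, and the *Anxa2* stretch of 187 bases held an AP-1 motif, as did 5.14%. No motif was common to the neighbouring *S100a4* and *S100a6* stretches, and matches of different motifs did not overlap. These matches are letters in the sequence and were not measured as binding sites.

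Median log2 fold changes varied with exon length in each comparison, so the lengths of both S100 genes are given beside their values. Among genes with a mean log2 CPM above 3, the median log2 fold change in brain versus stroke blood was -1.18 for the 59 genes with up to 600 exon bases and -0.73 for the 176 genes from 600 to 1000 bases. It was -0.42 from 1000 to 1500 bases, -0.049 from 2000 to 3000 bases and 0.18 above 5000 bases. The shortest class stood at -0.98 without ribosomal protein genes. In brain versus sham blood the shortest and longest classes stood at -0.72 and 0.057. In stroke blood versus sham blood the trend ran the other way, with the same classes at 0.57 and -0.11. *S100a4*, with 584 exon bases, and *S100a6*, with 1367, fell by more than the median of their classes, -2.23 against -1.18 and -1.37 against -0.42. These lengths are unions of all annotated exons, so a transcript can be shorter. Of the *S100a4* bases, 302 are shared with *Gm42674*. The distance of each gene from its class, and the offset built on the same lengths, are uncertain to that extent.

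A fit with an offset for exon length, added after this trend was seen, left *S100a4* at -1.39 (adjusted p = 0.00269) and *S100a6* at -1.04 (adjusted p = 0.000838) in brain versus stroke blood. In brain versus sham blood they stood at -0.90 (adjusted p = 0.0341) and -0.98 (adjusted p = 0.00954), so both still passed but neither was a DEG there. *Anxa1*, with 2911 exon bases, hardly moved, at -0.97 and -0.81. The size of the *S100a4* fall against stroke blood was therefore smaller with the offset, while its direction and call were the same.

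**Figure D2:**
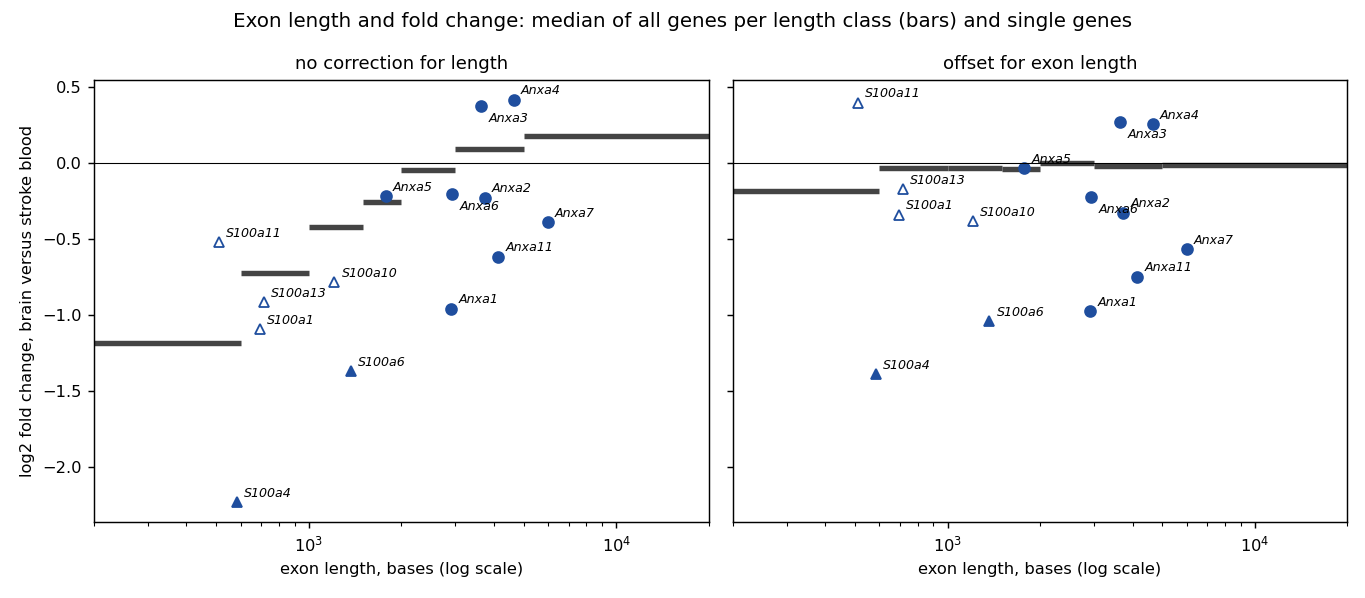
Log2 fold change in brain versus stroke blood (y axis) against exon length in bases (log x axis), without and with the offset for exon length. Bars are medians of all genes with a mean log2 CPM above 3 in each length class, circles are annexins, filled triangles *S100a4* and *S100a6*, and open triangles other S100 genes. The bars climb from -1.18 to 0.18 on the left and lie between -0.19 and -0.0027 on the right, where *S100a4*, *S100a6* and *Anxa1* stand at -1.39, -1.04 and -0.97.

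Markers of other cells and states moved with the same comparison. All 5 classical monocyte markers used here (*Ly6c2*, *Ccr2*, *Vcan*, *F13a1* and *Chil3*) were lower in the brain than in stroke blood and than in sham blood, and their summed level ran from 4367 to 5398 normalised CPM in the brain, 10793 to 13188 in stroke blood and 13989 to 32302 in sham blood. All 8 microglia markers were higher, with sums of 1178 to 3489 in the brain, 146 to 207 in stroke blood, where 2 of the 8 were at 0 in every library, and 161 to 211 in sham blood, where 1 was. The 5 dendritic cell markers summed to 204 to 322 in the brain and to at most 117 in blood. Of the genes of the gates that the sorted cells had to lack, *Itgax* was at 74.3 to 128 in the brain and at most 20.3 in blood. *Ly6g* was at most 0.61 in the brain and at most 0.82 in blood. Platelet and erythroid markers summed to at most 5.01 and 13.7 in the brain, and to 248 to 331 and 14211 to 19988 in stroke blood. In sham blood they summed to 14 to 552 and 1261 to 34224, with sham blood replicate 1 the lowest blood library for both. Of 4 border-associated macrophage markers, the 3 tested (*Mrc1*, *Cbr2* and *Cd163*) were higher in both brain comparisons, and all 4 summed to 51 to 175 in the brain and at most 26.2 in blood. The 6 T and NK cell markers summed to 535 to 1118 in the brain, 279 to 805 in stroke blood and 211 to 559.9 in sham blood, and 2 were higher against stroke blood and 1 against sham blood. The 4 B cell markers summed to 43.9 to 85.5 in the brain, 65.9 to 113 in stroke blood and 127 to 238 in sham blood, and 3 were lower against sham blood. Of 6 non-classical monocyte markers, 1 was higher and 2 lower against stroke blood, and 2 were higher against sham blood. Of 6 neural markers, 3 were tested, with 1 higher and 1 lower against stroke blood and 1 higher against sham blood. Among them, *Ttr* was at 13.9 to 85 in the brain and at 0 in every blood library. The part of these cell mixtures in the falls of *S100a4*, *S100a6* and *Anxa1* was not tested.

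*Anxa1*, the glucocorticoid-induced annexin that acts on formyl peptide receptors, had a level of 814, 718 and 999 in sham blood, 1074, 885 and 859 in stroke blood and 472, 467 and 484 in the brain. The brain libraries were close to each other and all below the blood libraries. The log2 fold change was -0.96 ± 0.15 (SE, adjusted p = 0.0015 by edgeR) against stroke blood, 1.94-fold lower, and -0.82 ± 0.15 (SE, adjusted p = 0.0109 by edgeR) against sham blood, 1.76-fold lower. Without stroke blood replicate 2 or 3, and with upper-quartile normalization, the first value passed 1 in size (-1.04, -1.05 and -1.11). The gene lies on chromosome 19 from 20373428 to 20390944 on the minus strand, with no exon of another gene over its own. Within a library, the ratio of *Anxa1* to *Anxa2* in normalised CPM was 0.44 to 0.497 in stroke blood, 0.379 to 0.42 in sham blood and 0.242 to 0.316 in the brain, and the brain values overlapped neither blood group. This ratio was not tested.

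*Anxa2*, which forms a plasminogen-binding tetramer with *S100a10* at the cell surface and links membranes to actin, was the most abundant of the annexins in normalised CPM. Its level was 1938, 1894 and 2393 in sham blood, 2161, 2010.5 and 1803 in stroke blood and 1548, 1928 and 1534 in the brain, with brain replicate 2 inside the range of both blood groups. The log2 fold change was -0.23 (adjusted p = 0.304) against stroke blood and -0.30 (adjusted p = 0.229) against sham blood, with 95% intervals of -0.59 to 0.13 and -0.67 to 0.072, so a fall as large as the DEG threshold lay outside both intervals. Its partner *S100a10* fell, from 550.2, 445 and 555 in stroke blood and 605, 501 and 562 in sham blood to 276, 321 and 288 in the brain. The log2 fold changes of *S100a10* were -0.78 ± 0.15 (SE, adjusted p = 0.00439 by edgeR) and -0.90 ± 0.14 (SE, adjusted p = 0.00495 by edgeR). With the offset for exon length they were -0.38 and -0.73, both past the test. The ratio of *S100a10* to *Anxa2* in normalised CPM was 0.221 to 0.308 in stroke blood, 0.235 to 0.312 in sham blood and 0.166 to 0.188 in the brain. This ratio was not tested. It is not corrected for the trend with exon length, and *S100a10* has 1212 exon bases and *Anxa2* 3731.

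*Anxa5*, which covers phosphatidylserine patches, had a level of 1048, 904 and 965 in sham blood, 970.4, 1018 and 821 in stroke blood and 703, 826 and 847 in the brain. The brain overlapped stroke blood, though all 3 brain libraries were below the sham blood libraries. Its log2 fold change was -0.22 (adjusted p = 0.311) against stroke blood and -0.28 (adjusted p = 0.181) against sham blood, with 95% intervals of -0.56 to 0.13 and -0.60 to 0.029. *Anxa6*, an annexin of endosomes and the plasma membrane with a duplicated core, had a level of 336, 406 and 392 in sham blood, 393, 439 and 349.7 in stroke blood and 316, 339 and 352 in the brain. The brain libraries overlapped both blood groups, and the log2 fold changes were -0.21 (adjusted p = 0.319) and -0.16 (adjusted p = 0.438).

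*Anxa7*, or synexin, a membrane-fusing partner of sorcin, had a level of 109, 109 and 136 in sham blood, 146, 124 and 115 in stroke blood and 86.3, 99.7 and 103 in the brain. The 3 brain libraries lay below all 6 blood libraries, yet the log2 fold changes of -0.39 (adjusted p = 0.0914) and -0.28 (adjusted p = 0.234) did not pass. With upper-quartile normalization and with the offset for exon length the first one passed (-0.54, adjusted p = 0.0303, and -0.57, adjusted p = 0.0282).

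*Anxa4* and *Anxa3* were the members with higher means in the brain. *Anxa4*, an annexin of epithelia and of injured membranes, had a level of 129, 93.2 and 87.7 in sham blood, 95.3, 110.2 and 83.7 in stroke blood and 96.6, 139 and 145 in the brain, and brain replicate 1 sat among the blood libraries. Its log2 fold change was 0.42 (adjusted p = 0.131) against stroke blood, with a 95% interval of -0.016 to 0.85, and 0.31 (adjusted p = 0.346) against sham blood. Without brain replicate 1 the first value was 0.58 (adjusted p = 0.0366). *Anxa3*, which is abundant in neutrophils, had a level of 137, 89.5 and 61.7 in sham blood, 90.3, 67.8 and 137 in stroke blood and 115, 115 and 147 in the brain. Brain replicates 1 and 2 lay inside the range of each blood group, and brain replicate 3 was above every blood library. The log2 fold changes were 0.38 (adjusted p = 0.278) and 0.40 (adjusted p = 0.344).

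*Anxa11*, which tethers RNA granules to lysosomes, was the least abundant member, with counts of 138, 144 and 175 in sham blood, 115, 112 and 110 in stroke blood and 164, 39 and 38 in the brain. In normalised CPM it was 6.93, 6.79 and 9.75 in sham blood, 5.8, 5.36 and 6.44 in stroke blood and 7.92, 1.62 and 1.65 in the brain. Brain replicates 2 and 3 were below every blood library and brain replicate 1 was above all but sham blood replicate 3. The log2 fold change was -0.62 ± 0.60 (SE, adjusted p = 0.473 by edgeR) against stroke blood and -1.05 ± 0.63 (SE, adjusted p = 0.279 by edgeR) against sham blood, and without brain replicate 1 these became -1.81 (adjusted p = 0.00855) and -2.24 (adjusted p = 0.00869). The pseudogenes *Gm2260* (657 bases at 100% identity) and *Gm2274* (609 bases at 99.7%) carry near copies of its transcript and had at most 2 and 0 counts, so reads of *Anxa11* could have been split or dropped. Exons of *Anxa2*, *Anxa3*, *Anxa4* and *Anxa11* also overlap short stretches of *Gm16144*, *Gm42603*, *Gm44036* and *Anxa11os*, where reads may be shared.

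On GRCm38, *S100a6* lies on chromosome 3 from 90612882 to 90624181 on the plus strand. *Anxa2* lies on chromosome 9 from 69453620 to 69491795 on the plus strand, *Anxa3* on chromosome 5 from 96793339 to 96845966 on the plus strand and *Anxa4* on chromosome 6 from 86736840 to 86793584 on the minus strand. *Anxa5* lies on chromosome 3 from 36448923 to 36475894 on the minus strand and *Anxa6* on chromosome 11 from 54979108 to 55033445 on the minus strand. *Anxa7* and *Anxa11* share a chromosome, with *Anxa7* on chromosome 14 from 20455260 to 20480133 on the minus strand and *Anxa11* on chromosome 14 from 25842156 to 25886804 on the plus strand.

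**Figure D3:**
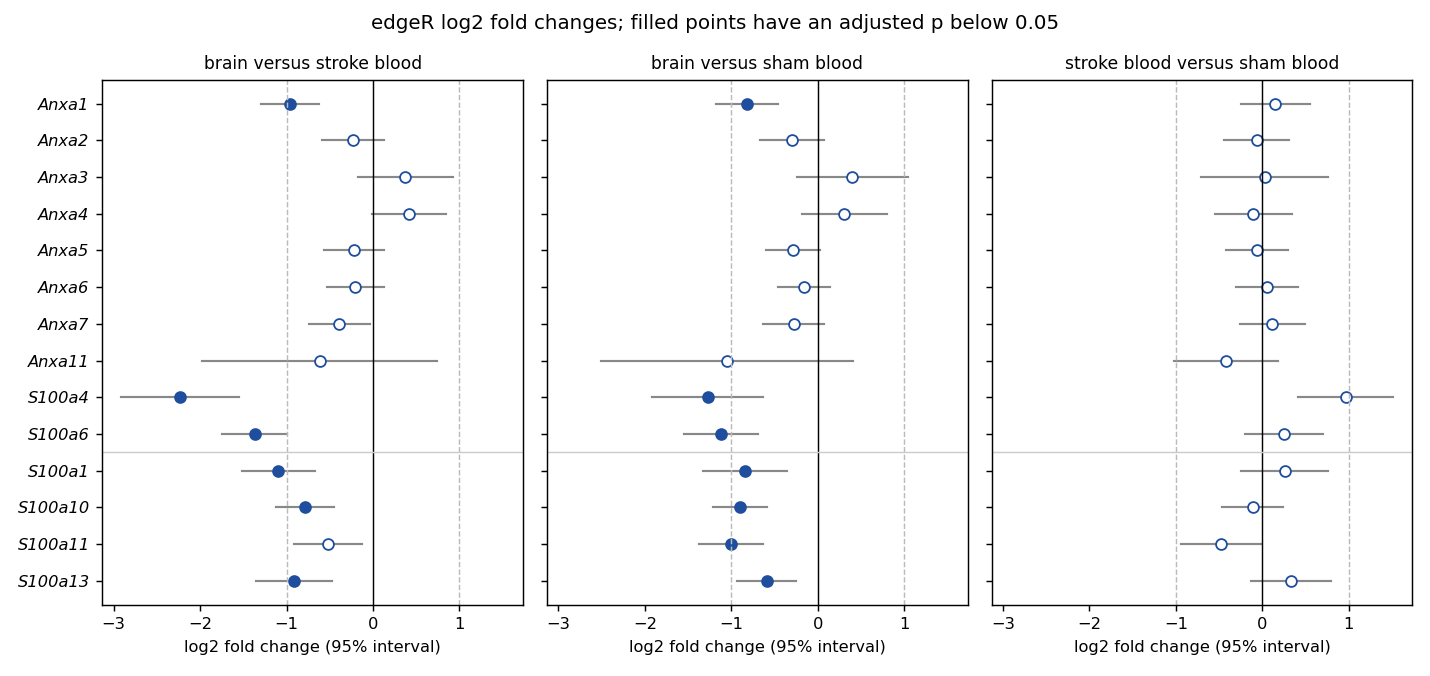
EdgeR log2 fold changes (x axis) with 95% intervals for the 10 genes and, below the line, 4 other S100 genes in the 3 comparisons, n = 3 libraries per group; filled points have an adjusted p below 0.05 and dashed lines mark the DEG threshold. *S100a4*, *S100a6* and *Anxa1* are filled in both brain comparisons, and no point is filled in stroke blood versus sham blood.

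Per exon base, the order of the members differed from that in counts. Divided by exon length, *S100a6* stood first in stroke blood at 927 ± 147 normalised CPM per kb (mean ± SD, n = 3), followed by *Anxa2* at 534 ± 48.1 and *Anxa5* at 527 ± 57.9, which overlapped. *Anxa1* came next at 323 ± 40.3, then *S100a4* at 192 ± 54 and *Anxa6* at 134 ± 15.2, whose ranges overlapped. *Anxa3* at 27 ± 9.76, *Anxa7* at 21.4 ± 2.65 and *Anxa4* at 20.8 ± 2.86 followed with overlapping ranges, and *Anxa11* was last at 1.42 ± 0.131. In the brain, *Anxa2* (448 ± 60) and *Anxa5* (446 ± 43.6) stood first, above *S100a6* (352 ± 39.4) whose highest library just passed the lowest of *Anxa5*. *S100a4* (39.9 ± 13.9) fell behind *Anxa6* (115 ± 6.18), with no overlap between them. As 302 of the 584 exon bases of *S100a4* are shared with *Gm42674*, its level per kb may be too low in each group. Its place in these orders is therefore uncertain.

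Summed per length over the 8 annexins, the level was 1593 ± 128 normalised CPM per kb in sham blood, 1589 ± 137 in stroke blood and 1249 ± 94.2 in the brain (n = 3 each). *Anxa2* and *Anxa5* made up similar shares of that sum in each group, 34.8% ± 2.28, 33.6% ± 0.515 and 35.8% ± 3.08 for *Anxa2* in sham blood, stroke blood and brain, and 34.5% ± 2.8, 33.1% ± 1.73 and 35.6% ± 1.81 for *Anxa5*. The share of *Anxa1* was 18.1% ± 1.61, 20.3% ± 1.54 and 13.1% ± 1.05, and its highest brain library lay below its lowest blood library. Without division by length, the share of *Anxa2* was 43.4% to 46% and that of *Anxa5* 20.4% to 21.8% over the 3 groups.

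The rest of both families was then listed. Of the 4 other annexin genes, *Anxa10* and *Anxa13* had 0 counts in all 9 libraries, where a floor of 3 counts equals 0.133 to 0.162 CPM. *Anxa8* had between 0 and 24 counts in the blood libraries and 13, 86 and 15 in the brain. Against stroke blood its log2 fold change was 3.12 ± 1.04 (SE, adjusted p = 0.048 by edgeR), a call that was lost in most fits that left out a library, where the value ran from 1.80 to 3.85. *Anxa9* did not pass (0.49, adjusted p = 0.496).

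Of the 16 S100 genes listed, *S100a4* and *S100a6* among them, 8 had enough counts to be tested in brain versus stroke blood. Of these, 5 were lower and 2 higher at an adjusted p below 0.05, against 13.1% and 17.5% of all genes. The lower ones besides *S100a4* and *S100a6* were *S100a1*, *S100a10* and *S100a13*. *S100a1*, best known from muscle, had a level of 52, 62.7 and 86.1 in sham blood, 80.8, 65.3 and 94.7 in stroke blood and 32.7, 38.5 and 39.6 in the brain, and changed by a log2 value of -1.09 ± 0.19 (SE, adjusted p = 0.00243 by edgeR) against stroke blood and -0.84 ± 0.21 (SE, adjusted p = 0.0282 by edgeR) against sham blood. *S100a13*, a helper of the release of proteins without a signal peptide, had a level of 95, 88.8 and 115 in sham blood, 141, 91.2 and 146 in stroke blood and 63.9, 66.2 and 66.3 in the brain, with log2 fold changes of -0.92 ± 0.19 (SE, adjusted p = 0.00717 by edgeR) and -0.59 ± 0.15 (SE, adjusted p = 0.0277 by edgeR). Both genes have short exons in sum, 694 and 715 bases, and with the offset for exon length neither passed against stroke blood (-0.34, adjusted p = 0.132, and -0.17, adjusted p = 0.391) or sham blood (-0.51, adjusted p = 0.153, and -0.26, adjusted p = 0.245). Against sham blood the *S100a1* call was also lost without any one of 5 libraries, and that of *S100a13* with library size scaling and without any one of 4 libraries.

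*S100a11*, the calcium-dependent partner of annexin A1, had the highest level per length of both families in each group. Its level was 1034, 795 and 1119.7 in sham blood, 679, 572 and 880.2 in stroke blood and 484, 507 and 466 in the brain. It passed against sham blood (-1.00 ± 0.16 SE, edgeR adjusted p = 0.00600) and narrowly missed against stroke blood (-0.52 ± 0.18 SE, edgeR adjusted p = 0.0501), where it passed in 6 other fits with all libraries, DESeq2 among them. With the offset for exon length the value against stroke blood changed sign to 0.40 (adjusted p = 0.0515), and against sham blood it was -0.57 (adjusted p = 0.0282). The sign of this gene between brain and stroke blood therefore depended on the offset.

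*S100a8* and *S100a9* went the other way. *S100a8* had a level of 42.5, 77.8 and 984 in sham blood, 31.3, 13.9 and 47.9 in stroke blood and 231, 56.6 and 146 in the brain, and *S100a9* of 34.8, 26.1 and 265 in sham blood, 3.33, 3.01 and 30.4 in stroke blood and 188, 66.8 and 160.4 in the brain. All 3 brain libraries lay above all 3 stroke blood libraries for both genes, while sham blood replicate 3 was the highest of the 9 libraries for both. The log2 fold changes were 2.26 ± 0.54 (SE, adjusted p = 0.012 by edgeR) for *S100a8* and 3.54 ± 0.85 (SE, adjusted p = 0.0123 by edgeR) for *S100a9* against stroke blood, and -1.33 ± 1.09 (SE, adjusted p = 0.426 by edgeR) and 0.36 ± 0.84 (SE, adjusted p = 0.793 by edgeR) against sham blood. Leaving out stroke blood replicate 3, which held the highest *S100a9* level of that group, the value of *S100a9* against stroke blood was 5.44 (adjusted p = 0.00084), and it ran from 3.03 to 5.44 over the fits that left out a library. Leaving out sham blood replicate 3, the values against sham blood were 1.28 (adjusted p = 0.203) for *S100a8* and 2.19 (adjusted p = 0.0348) for *S100a9*. The rise of *S100a8* against stroke blood was lost in the fit of all 9 libraries (adjusted p = 0.12) and without stroke blood replicate 1 (adjusted p = 0.0552). The 7 neutrophil markers summed to 423 to 781 normalised CPM in stroke blood, 591 to 1072 in the brain and 694 to 1804 in sham blood, and 3 of the 5 tested were higher and 1 lower in brain versus stroke blood. The sums hide opposite moves. *Camp*, *Ngp* and *Ltf* were at 31.5 to 75.8, 161 to 309 and 22.2 to 67 in the brain and at most 5.85, 21.1 and 3.86 in stroke blood. *Mmp8* was at 110 to 145 in the brain and 414 to 479 in stroke blood, and *Retnlg*, *Ly6g* and *Cxcr2* overlapped. Their part in these values was not tested. The other 8 S100 genes had at most 24 counts in any library, and *S100a14* and *S100z* had 0 in all. S100a2, which is not among the 16, had 2 counts in the whole series.

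Along chromosome 3, *S100a1*, *S100a13*, *S100a4* and *S100a6* lie within 102 kb of each other and were lower in the brain, and *S100a8* and *S100a9*, starting 56.1 and 79.8 kb beyond *S100a6*, were higher against stroke blood. The 4 tested genes on the near side of the cluster, *Ints3*, *Ilf2*, *Snapin* and *Chtop*, had log2 fold changes of -0.07, 0.42, 0.24 and 0.32 against stroke blood, and none passed. All these values are without the offset for exon length. With it, *S100a1* and *S100a13* passed against neither blood group, while *S100a4* and *S100a6* still passed against both. The part of length in this pattern was not tested. *S100a11* and *S100a10* lie farther off on the same chromosome, between 93520488 and 93564643. Genes of this stretch moved in both directions.

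**Figure D4:**
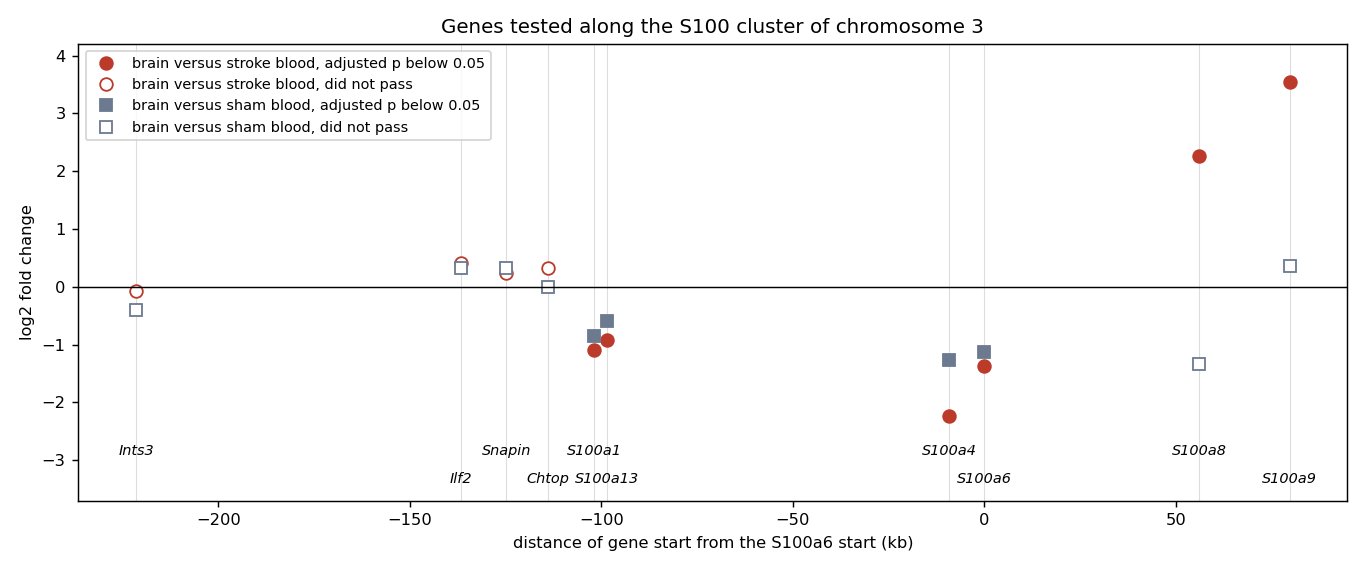
Log2 fold change (y axis) of the genes tested along the S100 cluster against the distance of each gene start from the start of *S100a6* in kb (x axis), for brain versus stroke blood (circles) and brain versus sham blood (squares), with filled symbols for an adjusted p below 0.05. *S100a1*, *S100a13*, *S100a4* and *S100a6* lie below 0 in both comparisons, and *S100a8* and *S100a9* are filled above 0 only against stroke blood. The values are without the offset for exon length.

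The genes that work with annexins and S100 proteins were mixed. Of 11 partners, 10 were tested, and in brain versus stroke blood 2 were lower and 1 higher, against 13.1% and 17.5% of all genes. The lower ones were *S100a10* and *Ahnak*, the giant scaffold that S100A10 and annexin A2 anchor at the membrane. *Ahnak* fell from 955, 786 and 796 normalised CPM in stroke blood and 608, 716 and 669 in sham blood to 327, 334 and 370.5 in the brain, with log2 fold changes of -1.27 ± 0.15 (SE, adjusted p = 0.000359 by edgeR) and -0.93 ± 0.13 (SE, adjusted p = 0.00384 by edgeR). Its exons sum to 19938 bases, and with the offset for exon length the values were -1.37 and -1.08. The higher one, *Ahnak2*, had counts of 0, 0 and 0 in sham blood, 13, 0 and 0 in stroke blood and 54, 34 and 84 in the brain (edgeR adjusted p = 0.0418 and 0.00506), and the first of these calls was lost without any single library but stroke blood replicate 1. In brain versus sham blood 3 of the 10 were lower, *S100a11* beside *S100a10* and *Ahnak*, against 7.68% of all genes, and 1 was higher, against 12.1%.

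Of 7 receptors for these proteins, 5 were tested, and *Fpr2* was the one that was lower in both brain comparisons, where 13.1% and 7.68% of all genes were lower. *Fpr2*, a receptor for annexin A1 and for formylated peptides, had a level of 23.4, 29.8 and 50.5 in sham blood, 31.8, 27.8 and 37.9 in stroke blood and 9.18, 8.2 and 7.88 in the brain. The log2 fold changes were -1.92 ± 0.21 (SE, adjusted p = 0.00029 by edgeR) and -2.02 ± 0.30 (SE, adjusted p = 0.00489 by edgeR), 3.78-fold and 4.06-fold lower, with 48 exon bases shared with *Fpr3*. *Plgrkt*, a plasminogen receptor, was higher against sham blood alone among the 2 comparisons (0.65 ± 0.19 SE, edgeR adjusted p = 0.0462), a call that was lost without any one of 5 of the 6 libraries.

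Of 16 genes of membrane repair, 13 were tested, and 2 were lower and 1 higher in brain versus stroke blood, against 13.1% and 17.5% of all genes, and 1 lower in brain versus sham blood, against 7.68%. In brain versus stroke blood *Capns1*, the small subunit shared by calpains, was lower (-1.53 ± 0.34 SE, edgeR adjusted p = 0.0093), as was *Ehd4* (-0.53 ± 0.18 SE, edgeR adjusted p = 0.0494), and *Ehd1*, which like *Ehd4* shapes recycling endosomes, was higher (1.51 ± 0.20 SE, edgeR adjusted p = 0.000658). Neither *Capns1* nor *Ehd1* passed against sham blood (-0.77, adjusted p = 0.137, and 0.52, adjusted p = 0.311). There, *Smpd1*, the acid sphingomyelinase, was the gene of this list that passed, lower in the brain (-0.69 ± 0.16 SE, edgeR adjusted p = 0.0203), a call lost without any one of 4 libraries. Exons of *Capns1* overlap *Gm26810* on the opposite strand, and the *Ehd4* call was lost with library size scaling and in most fits without a library.

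Calcium sensors of the calmodulin and EF-hand kind moved in both directions. All 14 were tested, and in each brain comparison 5 were higher and 2 lower, against 17.5% and 13.1% of all genes for stroke blood and 12.1% and 7.68% for sham blood. *Aif1*, the microglia and macrophage protein also called Iba1, rose from 59.6, 43.6 and 63.8 normalised CPM in sham blood and 100, 114 and 141 in stroke blood to 173, 286 and 304 in the brain, with log2 fold changes of 1.13 ± 0.23 (SE, adjusted p = 0.00552 by edgeR) and 2.20 ± 0.25 (SE, adjusted p = 0.00177 by edgeR). *Efhd2*, an actin-binding EF-hand protein, rose from 496, 557 and 501 in stroke blood to 1008, 1121 and 1039 in the brain (1.05 ± 0.14 SE, edgeR adjusted p = 0.000692). The other higher ones against stroke blood were *Mcfd2* (1.39) and *Rcn1* (1.76) of the secretory pathway and *Calm2* (0.53), 1 of the calmodulin genes. *Cib1* (-0.83), a partner of integrins, and *Chp1* (-0.92), a partner of sodium/proton exchangers, were lower. All 7 of these genes passed against sham blood in the same direction, and with the offset for exon length all 7 calls held in both comparisons. The call of *Calm2* was lost against stroke blood with upper-quartile scaling and in both comparisons without any one of 4 libraries, that of *Rcn1* against sham blood without any one of 3, and that of *Cib1* against sham blood without brain replicate 3.

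Stroke blood and sham blood were compared next, which asks whether circulating monocytes differed after stroke. None of the 10 members passed with edgeR's quasi-likelihood test, where 1 gene of 12664 (0.0079%) passed and was a DEG. *S100a4* was the 1 member with an unadjusted p below 0.05 (background 12.5%), and 2 members, *S100a4* and *Anxa11*, had groups that did not overlap (background 18.4%). *S100a4* was 1.95-fold higher in stroke blood, with a log2 fold change of 0.96 ± 0.24 (SE, adjusted p = 0.285 by edgeR). It passed with DESeq2 (adjusted p = 0.0252) and with edgeR when genes with low counts were kept (adjusted p = 0.0245). In those fits 191 and 207 of the 23335 genes fitted passed. With the offset for exon length the value was 0.48 (adjusted p = 0.355), and the median of genes with up to 600 exon bases was 0.57 in this comparison without it. *S100a6* had a log2 fold change of 0.26 (adjusted p = 0.614). The 8 annexins had values from -0.42 (*Anxa11*) to 0.15 (*Anxa1*), and those of *Anxa2*, *Anxa3*, *Anxa4*, *Anxa5*, *Anxa6* and *Anxa7* changed sign in at least 1 alternative fit. *S100a8* and *S100a9* stood at -3.57 (adjusted p = 0.299) and -3.16 (adjusted p = 0.33), with sham blood replicate 3 far above the other libraries. This comparison shares its stroke blood libraries with brain versus stroke blood.

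For the members with the largest fall and the largest rise between brain and stroke blood, the 3 genes with the most similar pattern were sought among 7927 genes, by the root mean square difference of centred log2 CPM over the 9 libraries. Those nearest to *S100a4* were *Rps28* (0.14), *Rps15a* (0.16) and *Rps20* (0.19), which encode proteins of the small ribosomal subunit. No offset for exon length was used in this search, and *S100a4* has 584 exon bases. Genes with up to 600 exon bases had median log2 fold changes of -1.18 in brain versus stroke blood and 0.57 in stroke blood versus sham blood. The part of length in this likeness was not tested. Those nearest to *Anxa4* were *Pde12*, *Stx7* and *Pafah1b2*, at 0.11 each.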

How the data were processed

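RNA of monocytes/macrophages sorted by FACS from sham blood, stroke blood and stroke brain was sequenced as 9 libraries, 3 per group, grouped by their titles. Per the labels and the methods of the study, the authors made cDNA with the SMART-Seq HT kit and libraries with Nextera XT, mapped paired-end reads to GRCm38 with HISAT2 and counted them with HTSeq. The deposited values are raw counts per Ensembl gene, with no normalization. Tool versions, the annotation release, the strand setting and the overlap mode of HTSeq are not given in the sources used here. Neither kit marks strand. No molecular identifiers were used, so a floor of 3 counts covers counting error only. No library repeated another, since chi-square over its degrees of freedom ran from 23.9 to 135.9 between replicates, and n counts libraries.

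Each comparison was fitted on its own 6 libraries with the quasi-likelihood test of edgeR 4.0.16 under R 4.3.3, with TMM scaling, edgeR's default filter and Benjamini-Hochberg adjustment over the genes that passed it. The authors used DESeq2, here an alternative (1.42.0). SE is the size of the log2 fold change over the square root of F. Intervals cover 95%. The test step was also checked on simulated counts with 200 genes changed. Symbols, exon lengths and overlaps came from GENCODE M21, which includes 53706 of the 53801 identifiers; lengths are unions of all exons. Near copies of the members were sought with blastn at 95% identity or more.

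Genes were named by a rule: the members, every other annexin and S100 gene of the list, partners, receptors, membrane repair genes and calcium sensors past the test, and the 3 genes nearest to the members with the largest rise and fall. Single marker genes were singled out after their values were seen. The members and lists were chosen with earlier results of these data known. Alternatives were RLE, upper-quartile and library size scaling, no filter, a mean of at least 50 counts, DESeq2, 1 fit over all 9 libraries, a replicate block, a threshold of 0.01 on the adjusted p and leaving out each library. The offset for exon length (lowess with a span of 0.3 per library), alone and with the block, was added after seeing the data. Scripts used Python 3.11.15, pandas 2.3.3, numpy 2.4.6 and matplotlib 3.10.9. Protein sequences were not used here. A single marker gene is not reported here, and the marker sums leave it out.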

Additional observations from a re-analysis of the deposited data

How the results depend on the processing

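Among the 10 genes, every call in brain versus stroke blood held under all scaling, filter and tool alternatives and without each library, and 2 values gained a call with all libraries in the fit (*Anxa7* with upper-quartile scaling and with the offset for exon length). Without brain replicate 1 the number that passed was 5, with *Anxa11* and *Anxa4* added, and it ran from 3 to 5 over the fits that left out a library. Over all genes, DEGs also rose without brain replicate 1, to 3014 of 13788 genes tested, against 2771 of 13189 with all libraries. In brain versus sham blood, the DEGs among them numbered 1 with library size scaling, 0 with the offset, 0 with the offset and the block, 1 at an adjusted p below 0.01 (where 1 also passed) and 0 to 3 without a library, with 0 without sham blood replicate 3 and 1 without sham blood replicate 1, brain replicate 2 or brain replicate 3. The number that passed there ran from 2 to 4 without a library. DEGs over all genes ran from 1146 to 1883 in the same fits, against 1748 with all libraries. In stroke blood versus sham blood, 1 gene, *S100a4*, passed with DESeq2 and 1 with no filter, where 191 and 207 of all genes passed.

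Over all genes, DEGs numbered 2771, 1748 and 1 in the comparisons of brain with stroke blood, brain with sham blood and stroke blood with sham blood. At an adjusted p below 0.01 they numbered 1793, 792 and 0. The last comparison had 127 with DESeq2, 160 with no filter and 0 to 16 without a library. Brain versus sham blood had 1146 to 1883 without a library, the lowest without sham blood replicate 3. Library size scaling raised the median log2 fold change of all genes by 0.15 and 0.12 in the brain comparisons, and upper-quartile scaling moved it by -0.15 in brain versus stroke blood. The cause of these changes was not tested.

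Some values changed sign. In brain versus stroke blood, *S100a11* stood at 0.40 with the offset and 0.39 with the offset and the block. In brain versus sham blood, *S100a8* stood at 0.017 with the offset and the block and from -1.86 to 1.28 without a library, and *S100a9* from -0.10 to 2.19. In stroke blood versus sham blood, *Anxa2* stood at 0.0065 with the offset and the block, 0.0092 with upper-quartile scaling and from -0.14 to 0.040 without a library. *Anxa3* stood at -0.014 with library size scaling, -8.55e-06 with no filter and from -0.29 to 0.37 without a library, and *Anxa5* at 0.011 with upper-quartile scaling and from -0.15 to 0.020. The ranges without a library were -0.24 to 0.087 for *Anxa4*, -0.061 to 0.13 for *Anxa6* and -0.0033 to 0.22 for *Anxa7*.

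The replicate number as a block changed no call among the 10 genes, and 2, 2 and 0 of them were DEGs in the 3 comparisons, as without it. Of the other genes named, *S100a13*, *Plgrkt* and *Calm2* lost a call in brain versus sham blood with the block, and *Ehd4* and *Calm2* in brain versus stroke blood, and with the block and the offset together so did *S100a10* in brain versus stroke blood (adjusted p = 0.0942) and *S100a11* in brain versus sham blood (adjusted p = 0.0589). Libraries that share a number did not deviate together (correlations from -0.0955 to 0.0945), and 2 of 9 libraries were nearest to their own number in both other groups, so the numbers were not taken as pairs. *S100a4* was lost in brain versus sham blood without sham blood replicate 1, sham blood replicate 3, brain replicate 2 or brain replicate 3. *Anxa11* had the fewest counts of the 10 genes, 38 to 175 per library.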
